A study of Rattus norvegicus with 5 samples.

Results

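The genes described here encode the membrane fusion machinery of the cell. They comprise the SNAREs, the proteins that regulate or take apart SNARE complexes, the exocyst, synaptotagmins, Rab effectors and the MAL proteolipids. The list of 52 genes is defined by name, without a threshold on any measured value, although earlier results of these data were known when it was drawn up. Each gene was found through the RefSeq accession of its array probe. A probe was paired with 47 of the 52, among 15154 genes in all, and no probe was paired with Stx16, Vti1b, Sytl2, Rab11fip3 or Rab11fip5.

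RNA was measured in FRT cells, an epithelial line derived from the thyroid of Fischer rats, after 5 days of culture. In the 3D condition single cells had been embedded in Matrigel, a gel of basement membrane proteins, where they form follicles around a lumen, and in the 2D condition they had grown as confluent monolayers. The methods give the medium of FRT cells as a modified Ham's medium with donor calf serum and a mixture of hormones. Beyond that, neither the labels nor the methods name a genetic change or an added agent in either condition, and the gel distinguishes the 3D cultures. On each of 4 arrays RNA from 1 of 4 biological replicates of 3D culture, labelled with Cy5, was hybridised against a single pool of 4 biological replicates of 2D culture, labelled with Cy3. On 1 last array, called the dye swap or swapped array, the 2D pool carried Cy5 and was compared with pooled 3D RNA in Cy3. The spread between 2D cultures was therefore not measured, and the study compared a single cell line in which growth in a gel and follicle shape go together.

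A transport vesicle is first held at its target membrane by tethers such as the exocyst, an octameric complex that binds secretory vesicles at the plasma membrane. Rab GTPases on the vesicle recruit effectors that connect it to tethers and motors. Fusion then follows when an R-SNARE, usually a VAMP, pairs with Q-SNAREs, the syntaxins and SNAP proteins, on the opposite membrane. In polarized epithelia the apical and basolateral surfaces receive different vesicles, and in thyroid follicular cells thyroglobulin is secreted apically into the lumen and later taken back through endosomes and lysosomes.

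Each array held 58717 spots for 30367 probes, of which 47.2% to 51% were well above background in the channel with 3D RNA and 45.2% to 50.2% in the channel with 2D RNA. Log2 ratios across the 15154 genes correlated at 0.871 to 0.946 between replicate arrays and at 0.734 to 0.765 between each replicate array and the swapped array, all of which share the 2D pool. The swapped array thus stood apart from the others, and its value is given beside the replicates for every gene of the list that passed the test. All 7 epithelial marker genes were above background. Of 9 thyroid follicular markers 6 were, and Tg, Slc5a5 and Tshr, which mark differentiated thyrocytes, were not. Because secretory genes are also expressed in the calcitonin-producing C cells of the thyroid, markers of those cells were read too, and Calca, Chga and Chgb, which define them, were not above background in either condition. As the RNA came from whole cultures, a change in the number of expressing cells and a change in RNA per cell cannot be told apart.

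In total 20 of the 47 genes were higher in 3D and 2 were lower at a false discovery rate of 0.01 (limma over 5 arrays, Benjamini-Hochberg adjustment over all 15154 genes). That is 42.6% and 4.26% of the genes, against 14.4% of all genes tested that were higher and 11.5% that were lower. Of all 15154 genes 6081 were above background in neither condition, against 5 of the 47. With such dim probes removed, 20 of 42 genes of the list were higher and 2 lower, against 2212 and 1751 of 9091 genes. The 20 differences ranged from 0.19 to 0.96 on the log2 scale, and none of the 47 genes reached a 2-fold difference. All 20 lay above 0 on each of the 4 replicate arrays, and Vamp1 and Vamp7 lay below 0 on the swapped array. The remaining 25 genes lay between -0.16 and 0.24. The median over the 47 genes was 0.15, and was 0.19, 0.14, 0.11 and 0.16 in the 4 replicates and 0.10 in the dye swap. Over all genes the median was 0.00. Leaving out replicate 1, 2, 3 or 4 left 16, 13, 13 or 12 of the 47 genes higher, against 1821, 1662, 1675 or 1643 of all 15154. Without the background offset of 50 that limits the ratios of dim genes, 8 were higher and 0 lower, against 1178 and 1044 of all 15154. Those 8 were Mal, Mal2, Sytl1, Mlph, Syt5, Stxbp3, Stx7 and Vamp8. The genes lost in that setting included bright ones such as Rab3ip and Stx8, and the cause of the loss was not tested.

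**Figure D1:**
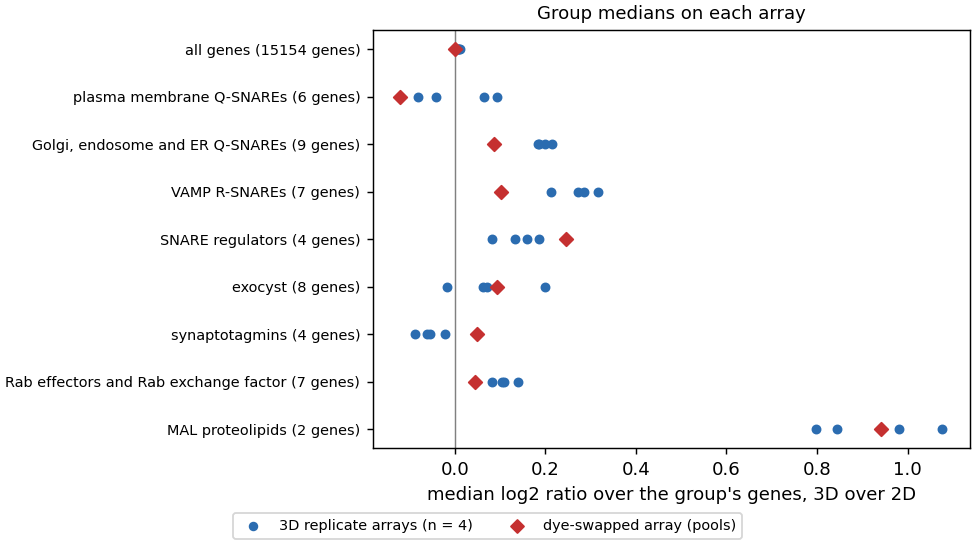
Median log2 ratio of 3D over 2D (horizontal axis) for each group of genes on each array, with replicate arrays as circles and the dye-swapped array of pools as diamonds. The MAL proteolipids stand farthest to the right at 0.80 to 1.08, the VAMPs lie between 0.10 and 0.32, and the synaptotagmins and plasma membrane Q-SNAREs fall on both sides of 0.

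The largest differences were those of the MAL proteolipids and the Rab27 effectors Sytl1 and Mlph. Mal and Mal2 are multi-span membrane proteins of lipid rafts, of which MAL is needed for direct apical delivery in canine MDCK cells and MAL2 for transcytosis to the apical surface in human hepatoma cells. Mal measured 1.10, 1.13, 0.74 and 0.74 in the replicates and 1.09 in the dye swap. Its replicates fell into a higher and a lower pair, with the widest spread of the 47 genes (SD 0.215, n = 4), and all were far above 0. The fitted difference of Mal was 0.96 (SE 0.07, a 1.95-fold difference, limma adjusted p = 5.19e-06). Mal2 measured 0.86, 1.02, 0.95 and 0.85 in the replicates and 0.79 in the dye swap. It varied much less than Mal, and its difference was 0.90 (SE 0.05, 1.86-fold, limma adjusted p = 6.11e-07). The median of the pair was 0.93.

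The promoter of Mal, the gene with the largest difference, is shown from RefSeq on the GRCr8 build (chr3:135341374-135341673, minus strand), from 250 bases before the annotated start to 50 after it. It was searched on both strands for CCAAT, bound by NF-Y, for GGGCGG, the GC box bound by Sp1, and for CACGTG, an E-box. Capitals mark the matches, here 2 GC boxes, 1 on each strand.
Mal: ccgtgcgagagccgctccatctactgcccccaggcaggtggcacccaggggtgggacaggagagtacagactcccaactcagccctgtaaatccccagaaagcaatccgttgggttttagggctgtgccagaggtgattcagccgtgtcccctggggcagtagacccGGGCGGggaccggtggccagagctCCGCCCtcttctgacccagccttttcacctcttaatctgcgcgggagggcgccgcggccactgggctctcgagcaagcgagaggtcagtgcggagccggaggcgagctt

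Among the Rab effectors and exchange factor 3 of 7 measured genes were higher and none was lower, against 14.4% and 11.5% of all genes. Sytl1, which binds Rab27 and phospholipids at secretory vesicles, measured 0.90, 0.98, 0.90 and 0.75 in the replicates and 0.79 in the dye swap. Every array showed a difference of similar size, and the fitted value was 0.86 (SE 0.05, 1.82-fold, limma adjusted p = 7.3e-07). Mlph couples Rab27a to myosin Va on the melanosomes of mouse melanocytes. It measured 0.62, 0.87, 0.70 and 0.75, and 0.52 on the swapped array, the lowest of the 5. Mlph was well above background in 3D on all 5 arrays and in 2D on 0, so the size of its ratio is uncertain. Its difference was 0.69 (1.62-fold, limma adjusted p = 8.03e-06), and 0.63 with a term for the dye. The ratio was again 1.62-fold with the 2D signal set to the dimmest level that counts as above background wherever it lay lower. Rab3ip, or Rabin8, the exchange factor that activates Rab8 during ciliogenesis, measured 0.55, 0.37, 0.29 and 0.34 in the replicates and 0.59 in the dye swap. Its fitted difference was 0.43 (SE 0.05, limma adjusted p = 0.000191), with replicate 1 and the swapped array above the rest.

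The other 4 genes of this group did not pass. Sytl4, an effector of Rab27 on insulin granules, and Sytl5 had values of 0.06 and 0.00, and both were near or below background. Rab11fip1 and Rab11fip2, which bind Rab11 on recycling endosomes, measured -0.12 and -0.08 with replicates on both sides of 0. Rab11fip1 had a pair of further probes at 0.05 and -0.05, neither of which changes that reading.

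Of the 4 synaptotagmins, vesicle proteins of which many sense calcium, only Syt5 passed. Syt5 measured 0.60, 0.64, 0.49 and 0.51 in the replicates and 0.38 in the dye swap, and its fitted difference was 0.52 (SE 0.05, 1.44-fold, limma adjusted p = 2.09e-05). All 5 values were above 0 and the swapped one was the lowest. Syt1, the sensor of fast transmitter release, and Syt7, which acts in slower secretion and in lysosome fusion, were above background on 0 arrays, with differences of -0.05 and -0.07. Syt11, whose domains do not bind calcium, was above background on 2 arrays in each condition and measured -0.05. Together, 4 of the 11 synaptotagmins and Rab effectors were higher and 0 lower by limma, against 14.4% and 11.5% of all genes. The counts were also 4 and 0 at an unadjusted p below 0.05. At that unadjusted threshold 3376 of all 15154 genes were higher and 2736 lower. The median of the 11 was 0.00, as it was over all genes.

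**Figure D2:**
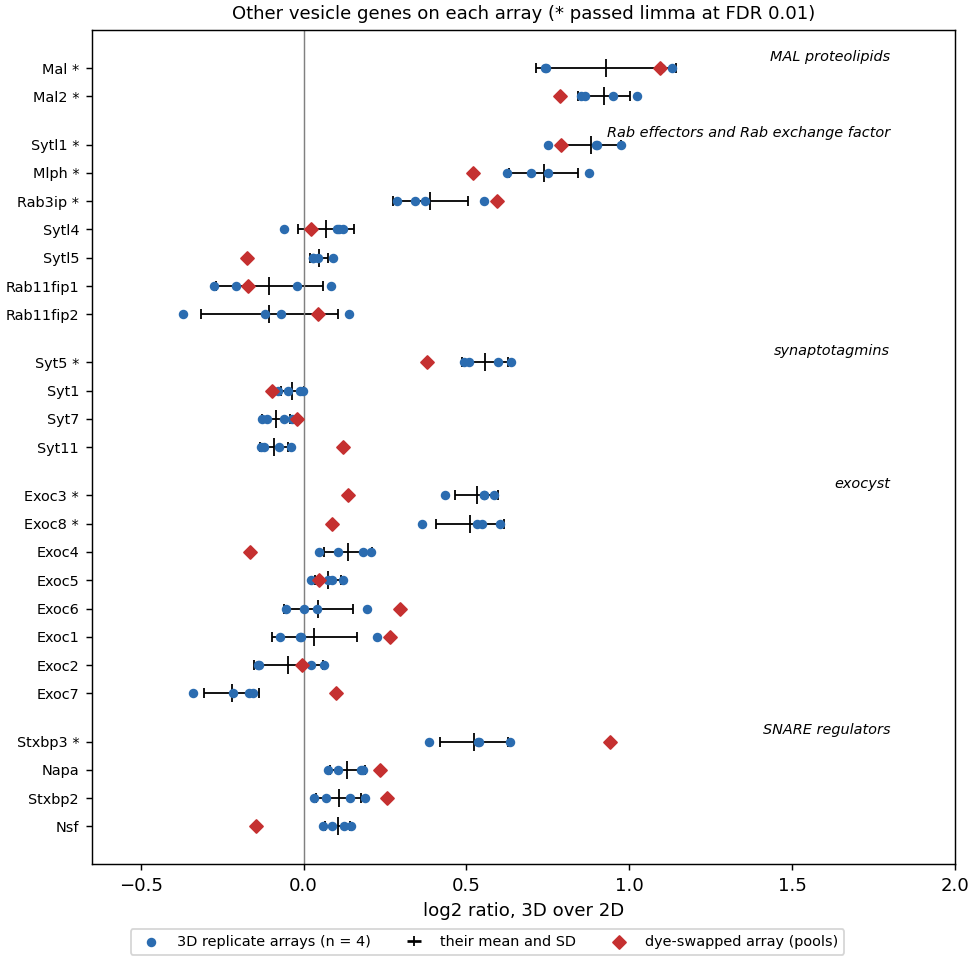
Log2 ratio of 3D over 2D (horizontal axis) on each array for the MAL proteolipids, Rab effectors, synaptotagmins, exocyst subunits and SNARE regulators. Circles are the 4 replicate arrays, bars their mean and SD, diamonds the dye-swapped array of pools, and an asterisk marks genes that passed. Mal, Mal2, Sytl1, Mlph and Syt5 lie to the right on all arrays, whereas the diamonds of Exoc3 and Exoc8 lie well left of their circles.

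Among the SNAREs, 11 of 22 measured genes were higher and 2 were lower, against 14.4% and 11.5% of all genes. Of 7 VAMPs 6 were higher, among them Vamp4, whose second probe has the opposite sign. With the dye term 4 of 7 VAMPs were higher, against 13.9% of all genes. Of 9 Q-SNAREs of the Golgi, endosomes and ER 4 were higher and 0 lower (by limma, with 6 higher and 0 lower at an unadjusted p below 0.05). At that unadjusted threshold 3376 of all 15154 genes were higher and 2736 lower. Of 6 Q-SNAREs of the plasma membrane 1 was higher and 2 were lower. The medians of the 3 groups were 0.24, 0.22 and 0.02. Whether the groups differ from each other was not tested. Without replicate 1, 2, 3 or 4 the SNAREs higher in 3D numbered 7, 4, 4 or 3 of 22. Over all 15154 genes the corresponding counts were 1821, 1662, 1675 and 1643.

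Both genes that fell were plasma membrane syntaxins. Stx3 is the apical syntaxin and Stx4 the basolateral one in canine MDCK cells. Stx3 measured -0.24, -0.39, -0.50 and -0.45 in the replicates and -0.21 in the dye swap. Stx4 measured -0.45, -0.44, -0.35 and -0.31, and -0.14 on the swapped array. Both genes were below 0 on every array, with the swapped array closest to 0 in each case. The fitted difference of Stx3 was -0.36 (SE 0.05, 1.28-fold lower, limma adjusted p = 0.000483) and that of Stx4 was -0.34 (SE 0.05, 1.26-fold lower, limma adjusted p = 0.000752). Both directions turned, to 0.05 and 0.18, when arrays were centred on their median with neither loess nor a dye term, a setting in which 7 of 15154 genes passed. Without the background offset of 50 their differences were -0.47 and -0.38 and their adjusted p-values 0.0114 and 0.0169.

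Of the partners of these syntaxins in the list, Stxbp3 and Snap23 were higher and Stxbp2 did not pass. Stxbp3, or Munc18c, which binds Stx4, measured 0.63, 0.54, 0.38 and 0.53 in the replicates and 0.94 in the dye swap. It was higher by 0.61 (SE 0.07, 1.52-fold, limma adjusted p = 0.000118), the opposite direction to Stx4 on each of the 5 arrays. Stxbp2, or Munc18-2, which binds Stx3 in epithelia, measured 0.14 (limma adjusted p = 0.0428) and did not pass. Snap23, the SNAP partner of both syntaxins outside neurons, measured 0.23, 0.26, 0.08 and 0.13 in the replicates and 0.25 in the dye swap. Its difference of 0.19 (SE 0.04, limma adjusted p = 0.00718) was the smallest that passed, and it no longer passed when any 1 replicate was left out, with adjusted p from 0.01 to 0.037.

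The 3 remaining plasma membrane Q-SNAREs did not pass. Stx1a, the syntaxin of nerve terminals, measured 0.21, 0.30, 0.51 and 0.31 on the replicate arrays but -0.40 on the swapped array, for a fitted difference of 0.19 (limma adjusted p = 0.249). Stx2 measured 0.08. Snap25, the neuronal counterpart of Snap23, was above background on 0 arrays, and its 2 probes measured -0.04 and 0.04.

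The promoters of Stx3 and Stx4 are shown because these were the only members of the list that fell. They lie at chr1:218110417-218110716 on the minus strand and chr1:191881817-191882116 on the plus strand (RefSeq, GRCr8), and capitals mark the same 3 motifs. The Stx3 window holds 1 CCAAT and 4 GC boxes with a GC content of 74.3%, and that of Stx4 holds 1 of each with 60.7%.
Stx3: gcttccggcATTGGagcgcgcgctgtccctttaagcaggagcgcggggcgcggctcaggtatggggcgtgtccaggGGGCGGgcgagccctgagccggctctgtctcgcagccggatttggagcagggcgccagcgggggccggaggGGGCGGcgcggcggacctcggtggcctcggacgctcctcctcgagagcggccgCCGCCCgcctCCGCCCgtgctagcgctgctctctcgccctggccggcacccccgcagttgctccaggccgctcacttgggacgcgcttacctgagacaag
Stx4: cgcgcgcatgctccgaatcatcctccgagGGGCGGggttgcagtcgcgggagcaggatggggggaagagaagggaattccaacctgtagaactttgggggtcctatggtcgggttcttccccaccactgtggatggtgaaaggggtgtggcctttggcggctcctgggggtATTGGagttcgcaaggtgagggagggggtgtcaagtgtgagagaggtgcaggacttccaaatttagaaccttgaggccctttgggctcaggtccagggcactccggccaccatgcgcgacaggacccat

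The Q-SNAREs Stx7 and Stx8 form the SNARE complex of late endosomes together with Vti1b and Vamp8. The 3 measured genes of this complex were all higher, and Vti1b had no probe. Stx7 measured 0.67, 0.56, 0.62 and 0.46 in the replicates and 0.60 in the dye swap, and its fitted difference was 0.58 (SE 0.04, limma adjusted p = 6.1e-06). Vamp8, which also serves regulated secretion in exocrine glands of mice, measured 0.39, 0.40, 0.44 and 0.47 in the replicates and 0.36 in the dye swap. The fitted difference of Vamp8 was 0.41 (SE 0.04, 1.33-fold, limma adjusted p = 2.89e-05), and like Stx7 it was of similar size on all 5 arrays. Stx8 differed in this respect. It measured 0.43, 0.61, 0.57 and 0.55 in the replicates and 0.01 in the dye swap, with a fitted difference of 0.44 (SE 0.08, limma adjusted p = 0.00225). Without replicate 2, 3 or 4 the adjusted p of Stx8 lay between 0.0127 and 0.0136.

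The promoters of these 3 genes are shown to set them side by side as genes of a shared complex. They lie at chr1:23056416-23056715 on the minus strand for Stx7, chr10:53154422-53154721 on the plus strand for Stx8 and chr4:106005593-106005892 on the minus strand for Vamp8 (RefSeq, GRCr8). Stx7 holds 3 CCAAT motifs and 1 GC box, Stx8 none of the motifs and Vamp8 1 GC box. None of the 6 promoters printed contains CACGTG.
Stx7: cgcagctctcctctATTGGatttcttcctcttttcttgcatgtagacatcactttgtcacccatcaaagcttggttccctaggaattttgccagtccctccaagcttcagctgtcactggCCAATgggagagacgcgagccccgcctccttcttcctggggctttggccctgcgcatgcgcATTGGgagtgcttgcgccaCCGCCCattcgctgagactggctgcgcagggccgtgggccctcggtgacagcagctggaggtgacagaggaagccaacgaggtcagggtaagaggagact
Stx8: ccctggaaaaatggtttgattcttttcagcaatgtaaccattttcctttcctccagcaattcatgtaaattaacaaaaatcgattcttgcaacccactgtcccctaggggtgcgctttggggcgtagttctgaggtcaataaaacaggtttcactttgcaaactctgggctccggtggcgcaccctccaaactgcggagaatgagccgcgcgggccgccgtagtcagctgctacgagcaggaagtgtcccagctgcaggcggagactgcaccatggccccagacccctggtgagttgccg
Vamp8: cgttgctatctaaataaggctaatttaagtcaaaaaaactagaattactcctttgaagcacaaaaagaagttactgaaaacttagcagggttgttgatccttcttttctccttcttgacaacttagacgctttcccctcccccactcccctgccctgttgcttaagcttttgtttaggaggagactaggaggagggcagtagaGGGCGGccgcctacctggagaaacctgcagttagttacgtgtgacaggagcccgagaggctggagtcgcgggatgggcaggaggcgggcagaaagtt

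Of the 47 genes 37 had a promoter in the RefSeq table. The GC box was found in 62.2% of these, against 34.9% of all 27457 promoters of that length, CCAAT in 40.5% against 37.7%, and CACGTG in 16.2% against 6.65%. Of the 15 genes with a promoter that were higher in 3D, the corresponding shares were 66.7%, 33.3% and 0. These are matches to letters and not binding sites. The 27457 promoters were not limited to the 15154 genes measured here, and the shares among measured genes alone were not computed.

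Of the other Q-SNAREs of inner membranes, Stx5 and Stx12 passed. Stx5, the syntaxin of transport between the ER and the Golgi, measured 0.13, 0.20, 0.27 and 0.23 in the replicates and 0.27 in the dye swap. Stx12, also called syntaxin 13, acts on recycling endosomes. It measured 0.19, 0.21, 0.18 and 0.22, the narrowest spread of all 47 genes (SD 0.0172, n = 4), and 0.39 on the swapped array. Their differences were small, at 0.22 (SE 0.04, limma adjusted p = 0.00193) and 0.24 (SE 0.04, limma adjusted p = 0.00228). Stx5 was no longer called without replicate 3 (adjusted p = 0.0127) or 4 (adjusted p = 0.0117), and Stx12 without replicate 2 (adjusted p = 0.0103) or 4 (adjusted p = 0.0108).

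The remaining 5 genes of that group did not pass. Snap29, which pairs with many syntaxins, measured 0.39, 0.47, 0.31 and 0.29 in the replicates and -0.26 in the dye swap, for a fitted difference of 0.24 (limma adjusted p = 0.0806). Stx6 of the trans-Golgi network measured 0.16 (limma adjusted p = 0.063), with its highest value, 0.41, on the swapped array. Stx17 of autophagosomes, Stx18 of the ER and Vti1a of the Golgi measured 0.00, 0.02 and 0.03.

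The VAMPs that passed differed in how far their arrays and probes were alike. Vamp7, an R-SNARE of lysosomes and of apical exocytosis, measured 0.72, 0.62, 0.67 and 0.59 in the replicates and -0.12 in the dye swap. Its fitted difference was 0.50 (SE 0.11, limma adjusted p = 0.00601), and the adjusted p lay between 0.0266 and 0.0297 when any 1 replicate was left out. Vamp2, the synaptobrevin of secretory vesicles, measured 0.19, 0.21, 0.33 and 0.28 in the replicates and 0.43 in the dye swap. Vamp2 was thus above 0 on every array, with a difference of 0.29 (SE 0.05, limma adjusted p = 0.000918). Vamp3, or cellubrevin, which recycles receptors from endosomes, measured 0.12, 0.21, 0.18 and 0.27, and 0.27 on the swapped array. Its difference of 0.21 (SE 0.04, limma adjusted p = 0.00304) also had a single sign but was lost without replicate 2, 3 or 4, with adjusted p from 0.0124 to 0.0198.

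Vamp1 and Vamp4 depended on the probe that was read. Vamp1, the synaptobrevin of spinal and neuromuscular synapses, measured 0.27, 0.27, 0.32 and 0.35 in the replicates and -0.02 in the dye swap with its brighter probe (difference 0.24, limma adjusted p = 0.00902). The second probe of Vamp1 averaged 0.03. Vamp4, which moves between endosomes and the trans-Golgi network, measured 0.31, 0.14, 0.26 and 0.29 in the replicates and 0.10 in the dye swap with its brighter probe (difference 0.22, limma adjusted p = 0.00415). Its second probe, above background in both conditions on all 5 arrays, measured -0.18, -0.43, -0.18, -0.26 and -0.25 in the same order. The probes of Vamp4 therefore pointed in opposite directions on every array, their mean was -0.02 (limma adjusted p = 0.794), and no direction is settled for this gene. Without any 1 replicate the adjusted p of Vamp1 lay between 0.0337 and 0.0452 and that of Vamp4 between 0.0105 and 0.0246. Vamp5, known from muscle, was the only VAMP below 0, at -0.13 (limma adjusted p = 0.0537).

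**Figure D3:**
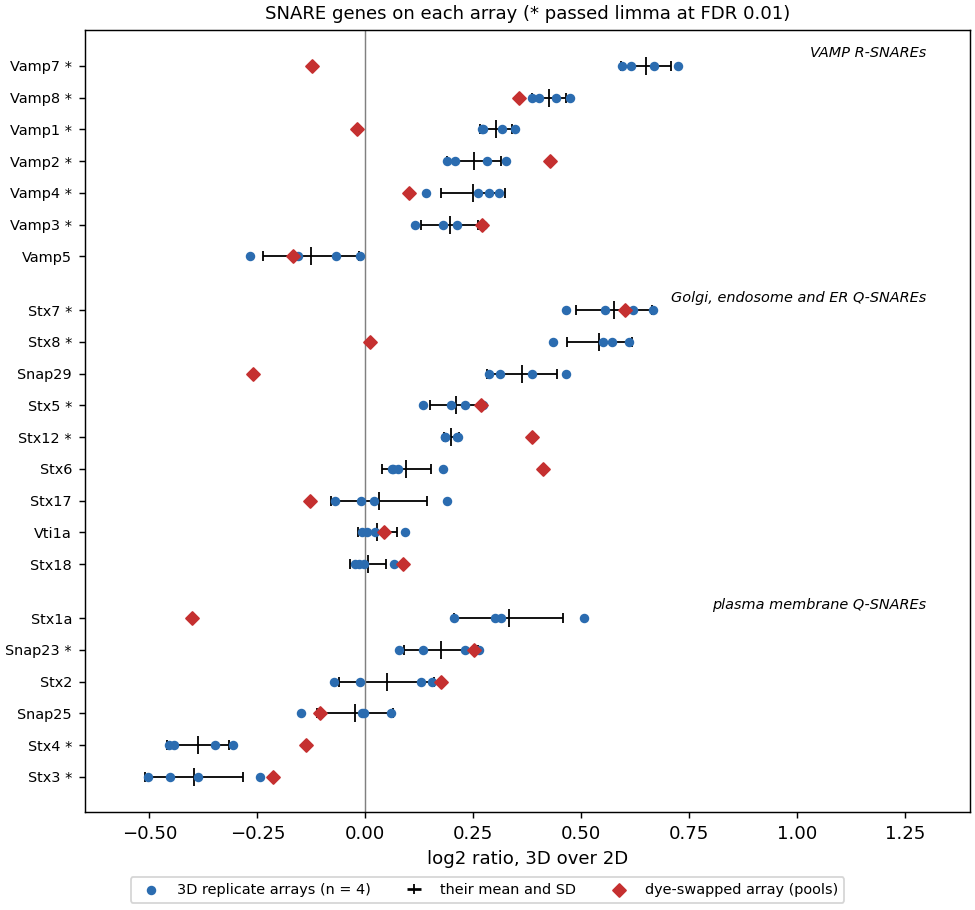
Log2 ratio of 3D over 2D (horizontal axis) on each array for the 22 measured SNARE genes, grouped by membrane. Circles are the 4 replicate arrays, bars their mean and SD, diamonds the dye-swapped array of pools, and an asterisk marks genes that passed. Stx3 and Stx4 lie left of 0 on all arrays, Stx7 and Vamp8 right of 0 on all arrays, and the diamonds of Vamp7, Stx8, Snap29 and Stx1a lie far from their circles. Vamp4 is drawn from its brighter probe, and its other probe has the opposite sign, while Stx3 and Stx4 turned under median centring alone.

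The remaining SNARE regulators take SNARE complexes apart after fusion, Nsf as an ATPase and Napa, or alpha-SNAP, as its adaptor. Nsf measured 0.05 and was above background in 3D on only 2 arrays and in 2D on 0. Napa measured 0.15 (limma adjusted p = 0.0162) and did not pass. Of the 4 regulators, Stxbp3 alone was called, against 14.4% of all genes higher and 11.5% lower.

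The exocyst subunits did not move together. Exoc3, the Sec6 subunit, measured 0.43, 0.58, 0.55 and 0.55 in the replicates and 0.14 in the dye swap, with a fitted difference of 0.45 (SE 0.07, 1.37-fold, limma adjusted p = 0.000476). Exoc8, the Exo84 subunit and an effector of Ral GTPases, measured 0.36, 0.53, 0.60 and 0.55, and 0.09 on the swapped array. Exoc8 was higher by 0.43 (SE 0.07, 1.34-fold, limma adjusted p = 0.00123). In both genes all arrays were above 0 and the swapped array was far below the replicates. The other 6 subunits did not pass, with 0.08 for Exoc1, -0.04 for Exoc2, 0.08 for Exoc4, 0.07 for Exoc5, 0.10 for Exoc6 and -0.16 for Exoc7. Exoc2 was above background on 1 array in 3D and 0 in 2D, and Exoc5 on 0. Exoc7, the Exo70 subunit that binds the plasma membrane, measured -0.16, -0.34, -0.17 and -0.22 in the replicates and 0.10 in the dye swap (limma adjusted p = 0.0775). Without the swapped array Exoc7 measured -0.22 and passed (limma adjusted p = 0.00254). Over the 8 subunits the median was 0.08, with 2 higher and 0 lower by limma, against 14.4% and 11.5% of all genes. With an unadjusted p below 0.05, 2 subunits were higher and 1 was lower. At that unadjusted threshold 3376 of all 15154 genes were higher and 2736 lower. Without the offset of 50 neither Exoc3 (adjusted p = 0.0129) nor Exoc8 (adjusted p = 0.0161) passed.

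The comparison was repeated with a term for the dye, in a fit where 13.9% of all genes were higher, 12.1% were lower and 1.90% had a dye effect at the same false discovery rate. In that fit 20 of the 47 genes were again higher and 2 were lower, and 3 had a dye effect, namely Vamp7 (0.39, limma adjusted p = 0.00326), Stx1a (0.37, limma adjusted p = 0.0088) and Snap29 (0.31, limma adjusted p = 0.00805). The difference of Vamp7 shrank to 0.26 (limma adjusted p = 0.00125), Stx8 to 0.28 (limma adjusted p = 0.00133), Exoc3 to 0.33 (limma adjusted p = 0.000336) and Exoc8 to 0.30 (limma adjusted p = 0.00164). Stxbp3 grew to 0.73 (limma adjusted p = 6.91e-06). Vamp1 and Vamp4 no longer passed, at 0.14 (limma adjusted p = 0.0253) and 0.18 (limma adjusted p = 0.0161). Stx6 and Napa passed in their place, at 0.25 (limma adjusted p = 0.00151) and 0.18 (limma adjusted p = 0.00874). Stx1a and Snap29 then measured -0.03 and 0.05 and did not pass. As 1 array carried the swapped dyes and also the pooled 3D RNA, dye and pooling cannot be told apart.

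**Figure D4:**
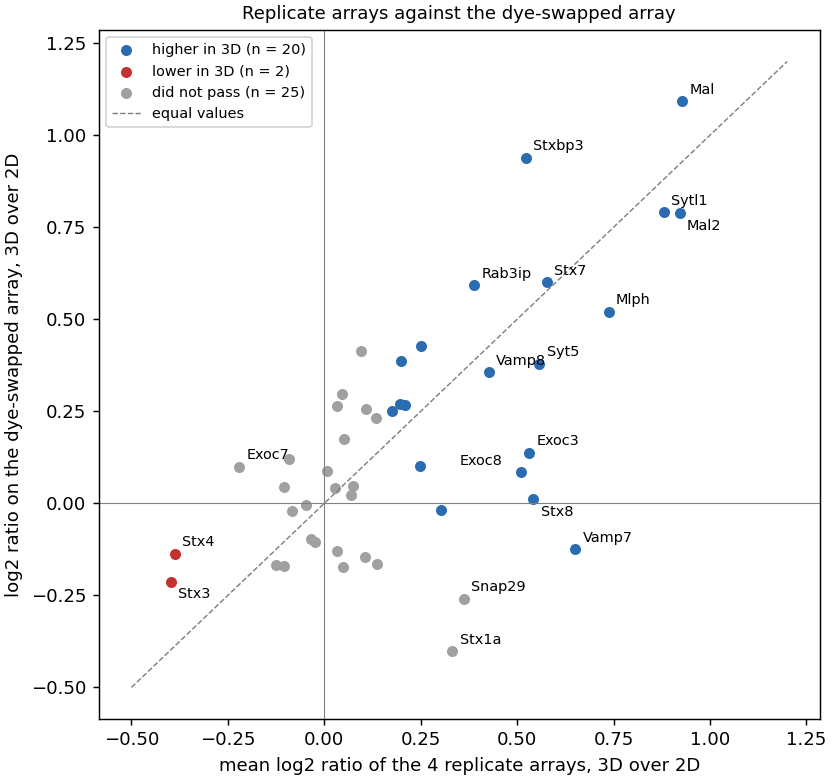
Mean log2 ratio of the 4 replicate arrays (horizontal axis) against the log2 ratio on the dye-swapped array (vertical axis) for the 47 genes, both as 3D over 2D, coloured by the call in the fit without a dye term. Mal, Mal2, Sytl1, Stx7 and Vamp8 lie near the dashed line of equal values, Stxbp3 lies above it, and Vamp7, Stx8, Exoc3, Exoc8, Snap29 and Stx1a lie below it.

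Related genes outside the list were counted in the same way, against the same 14.4% of all genes higher and 11.5% lower, and differences between lists were not tested. Of all 15154 genes 6081 were above background in neither condition, while all 36 measured tethering genes and all 36 coat and adaptor genes were above it. Of 29 measured other SNAREs and SNARE regulators 4 were higher and 8 were lower, with a median of 0.00. Those with the largest differences were Snapin, a SNAP-binding subunit of the BLOC-1 and BORC complexes, at 0.46 (limma adjusted p = 2.31e-05) and Scfd1, the Sec1 family partner of Stx5, at 0.43 (limma adjusted p = 2.38e-05). Those that fell furthest were Vapb, a tether between the ER and other membranes, at -0.40 (limma adjusted p = 0.00211) and Napg, or gamma-SNAP, at -0.34 (limma adjusted p = 0.000384). Vapb ranged from -0.72 to -0.26 over the replicates and did not pass with the dye term (limma adjusted p = 0.012). Stxbp5, or tomosyn, which binds plasma membrane syntaxins, was also lower, at -0.24 (limma adjusted p = 0.0028), and is named after its value was seen because Stx3 and Stx4 fell. Of 36 other synaptotagmins and Rab effectors 5 were higher and 2 lower, with a median of 0.05. Syt12 at 0.65 (limma adjusted p = 5.49e-06) and Syt17 at 0.64 (limma adjusted p = 2.77e-05) had the largest differences there. The lower genes were Doc2a, 1.24-fold lower (limma adjusted p = 0.0028) and not above background in 3D, and Pacsin2, an adaptor of endocytosis, at -0.21 (limma adjusted p = 0.00341).

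Of 36 other tethering genes, which included the COG, GARP, HOPS and TRAPP complexes, 12 were higher and 2 lower, with a median of 0.13. Trappc6a of TRAPP was higher by 0.75 (limma adjusted p = 1.21e-06). Exoc6b, a paralogue of the exocyst subunit Exoc6, was higher by 0.63 (limma adjusted p = 0.000224), with 0.64 to 0.79 in the replicates and 0.20 in the dye swap. Trappc4 at -0.34 (limma adjusted p = 0.0026) and Zw10 at -0.17 (limma adjusted p = 0.00996) were lower. Exoc6 itself, at 0.10, did not pass.

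Of 36 coat and adaptor genes 8 were higher and 6 lower, with a median of 0.04. Ap1m2, the epithelial subunit of the AP-1 adaptor that sorts cargo to the basolateral surface, was higher by 0.77 (limma adjusted p = 7.06e-07), and Sec31a of COPII was higher by 0.41 (limma adjusted p = 0.00212) but measured 0.01 on the swapped array. Gga2 was lower at -0.52 (limma adjusted p = 0.0012), as was Copg2 of COPI at -0.39 (limma adjusted p = 0.000332). Of 18 MARVEL domain and lipid raft transport genes other than Mal and Mal2, 8 were higher and 1 lower, with a median of 0.16. Lgals4, a galectin that stabilises rafts for apical transport in human enterocytes, was higher by 2.65 (6.28-fold, limma adjusted p = 6.14e-08), above 2.4 on each array. Cav2 was higher by 0.63 (limma adjusted p = 5.24e-05) and Plp2 was lower at -0.21 (limma adjusted p = 0.00343). Plp2 did not pass with the dye term (limma adjusted p = 0.0103).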

How the data were processed

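RNA of FRT cells was hybridised to 5 Agilent 2-colour rat arrays on 1 slide. The deposited spot intensities, from Agilent Feature Extraction 10.7.3.1, are medians over the pixels of each spot and of its local background and are not normalized. The deposited log10 ratios are Cy5 over Cy3 of signals processed by that software. The authors' value table holds log2 ratios which, per the methods, they obtained in limma with normexp, then loess for each array, then quantiles across arrays. Checked against the scanner values, each of its 5 columns is 3D over 2D, with medians from -0.00639 to 0.00106, and it served as an alternative.

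The median intensities were processed with limma 3.58.1 in R 4.3.3 by normexp with an offset of 50, which compresses the ratios of dim genes, then loess with control spots at weight 0, then quantiles of average intensity. Outlier spots, 1.12% to 1.6% per array, were left out, and 0 spots were saturated. Probes were named through their accession with a RefSeq table of GRCr8, while the arrays were designed on rn4. Of 30367 probes 17998 had a symbol, and each gene was read from its brightest probe. The number of arrays limits the precision.

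The log2 ratios, turned to 3D over 2D on the swapped array, were fitted with 1 coefficient over 5 arrays, with empirical Bayes (prior degrees of freedom 5.12) and an FDR of 0.01 by Benjamini-Hochberg across 15154 genes. The swapped array holds pools of the same cultures but was counted like the others. An exact two-sided sign permutation over the 4 replicates cannot go below 0.125. The procedure was tested on simulated data with independent arrays, so that test does not cover the shared 2D pool or the pooled 3D RNA. The members and the lists were chosen with earlier results of these data known, so no p-value was computed over a list. Every member that passed is named with all its values, others of the same complex by value, and from each related list up to 2 genes per direction with the largest change. In all, 15 alternatives were tried.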

Additional observations from a re-analysis of the deposited data

Results flagged for a closer look

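In a pair of genes 1 replicate array lay far from the other 3. For Stx6, replicate 2 measured 0.181 on the log2 scale against 0.061 to 0.0748 on the others, a gap of 0.885 of the whole range. For Sytl4, replicate 3 measured -0.0592 against 0.104 to 0.12, a gap of 0.907 of the range, in a gene that was not well above background in 2D on any array. Chance alone marks about 1 in 20 groups of 4 in this way, and 47 genes were examined. Neither gene passed the test in the fit without a dye term.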

How the results depend on the processing

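Of the 22 genes called, Stx7, Vamp8, Stxbp3, Syt5, Sytl1, Mlph, Mal and Mal2 passed under every alternative except median centring alone, while Snap23, Vamp1, Vamp3 and Vamp4 passed least often, in 4 to 7 of the 15. The count of 20 higher became 8 without the offset, 9 with Agilent's processed signals, 0 with median centring in place of loess, and 12 to 16 when 1 replicate was left out. The count of 2 lower became 0 under those first 3 settings and under median centring with a dye term, an alternative chosen after seeing the data that gave 19 higher. For the SNAREs, 11 higher became 2, 2 and 0 under the same 3 settings, 7 in the authors' table and 3 to 7 with 1 replicate left out, and 2 lower became 0 under the 4 settings. The 2 exocyst subunits became 0 under the 3 settings, 1 subunit was lower without the swapped array, and the 4 synaptotagmins and Rab effectors became 0 with median centring alone. The median over the genes, 0.15, was 0.20 without the offset, 0.20 with processed signals, 0.61 with median centring, 0.11 in the authors' table and 0.19 with dim probes removed. Median centring turned Stx3 to 0.0497 (limma adjusted p = 0.826) and Stx4 to 0.18 (limma adjusted p = 0.525), and the mean or median of all probes turned Vamp4 to -0.019. Under median centring alone 7 of 15154 genes passed, 12713 had a dye effect once a dye term was added, and 1178 higher and 1044 lower genes passed without the offset, against 2177 and 1741. The cause of these changes was not tested. Without the swapped array Stx1a, Snap29 and Exoc7 also passed. No paired analysis was possible because the 2D side was 1 pool.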
